A study of Mus musculus with 4 samples.

Results

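Thymic dendritic cells were described in droplet single-cell RNA sequencing of thymocytes of C57BL/6 mice aged 6 to 8 weeks, in 4 libraries, 2 in each of 2 groups, which the study describes as 2 control and cKO pairs. The control group carried Tox4;F/F, that is 2 Tox4 alleles with exons 4 to 6 flanked by loxP sites. The cKO group carried the same alleles together with Lck-Cre, a recombinase driven by the proximal Lck promoter, which is active in developing T cells, so the deletion was not directed at dendritic cells. The suspension had passed a 70-µm mesh with no enzyme digestion named in the sources used here, and the libraries were prepared as thymocytes and not enriched for dendritic cells.

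A droplet was a member if it held at least 200 genes, at least 500 unique molecular identifiers (UMIs, each counting 1 captured transcript) and at most 10% mitochondrial UMIs, fewer than 3 UMIs of C1qa, C1qb and C1qc together, none of Cd79a, Cd79b or Epcam, and either at least 15 UMIs of H2-Aa, H2-Ab1, H2-Eb1 and Cd74 together or at least 2 of Siglech. The members were thus chosen by measured values, so the levels of those genes are given as a description with no test, and so are all differences between classes of cells. The rule found 338 dendritic cells among 37600 kept cells, 63 in control 1, 86 in control 2, 92 in cKO 1 and 97 in cKO 2. The 4 matrices held 57354 cells before the limits on genes, UMIs and mitochondrial share.

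Dendritic cells present peptides on MHC class II molecules, and in the thymus they display self peptides to developing T cells, which are deleted or diverted to the regulatory lineage when they bind too strongly. Conventional dendritic cells fall into cDC1, which take up dead cells and cross-present, and cDC2, and both can mature into a CCR7-positive state with high costimulation. Plasmacytoid dendritic cells have a separate, lymphoid-like programme under the transcription factor TCF4, carry the receptor Siglec-H and are known for producing type I interferon.

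The MHC class II leg of the rule took in 332 droplets and the Siglech leg 18, of which 12 passed both and 6 passed through Siglech alone. Droplets with at least 2 Siglech UMIs were called plasmacytoid, and the other 320 conventional. Conventional droplets were called mature-like with at least 3 UMIs of Ccr7, Fscn1 and Ccl22 together (114 droplets). Of the rest, they were called cDC1-like with at least 3 UMIs of Xcr1, Clec9a, Naaa and Ifi205, more than of the cDC2 genes (41 droplets), or cDC2-like with at least 2 UMIs of Sirpa, Cd209a, Mgl2, Clec10a and Ccr2 and at least as many as of the cDC1 genes (8 droplets). The remaining 157 droplets stayed undivided. Just inside the MHC class II limit lay 56 members with 15 to 19 UMIs, and just outside it lay 120 droplets with 10 to 14, with similar median depths of 1269 and 1510.5 UMIs. Another 32 droplets outside the rule held 1 Siglech UMI. Of 687 kept droplets that passed either leg, 158 were left out for C1q, 163 for Cd79 and 54 for Epcam, and some of these for more than 1 reason.

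**Figure D1:**
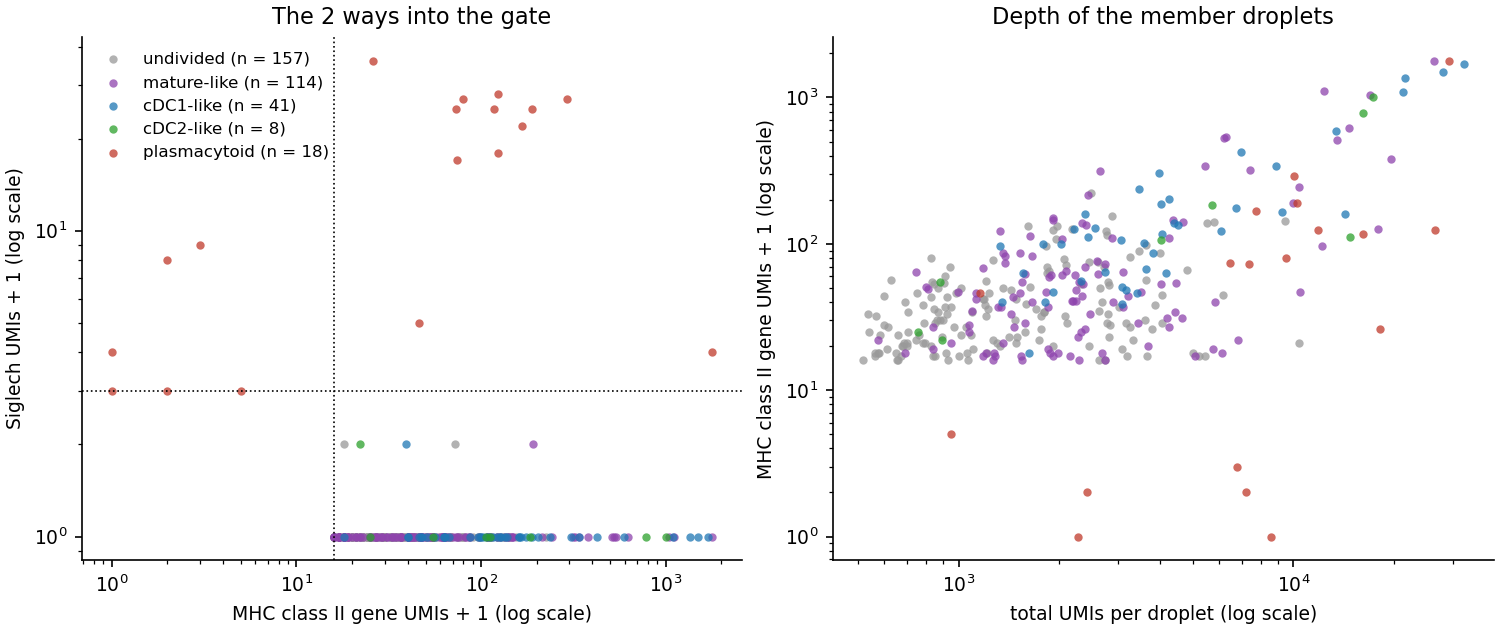
Siglech UMIs against UMIs of the 4 MHC class II genes (left, dotted lines at the limits of the rule) and UMIs of those 4 genes against total UMIs (right) in each of the 338 member droplets, coloured by class, on logarithmic axes with 1 added to the gene UMIs. The 18 plasmacytoid droplets lie on or above the Siglech line, 6 of them left of the MHC class II line, and the undivided droplets gather at low total UMIs.

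Depth differed between the classes. The median conventional droplet held 1914.5 UMIs and 845.5 genes, and the median plasmacytoid droplet held 8133.5 UMIs and 2690 genes. Within the conventional cells the medians were 3575 UMIs in cDC1-like, 2233.5 in mature-like and 1269 in undivided droplets. Of the conventional droplets with at least 2000 UMIs, 51 of 154 (33.1%) were undivided, against 106 of 166 (63.9%) of those with fewer. No barcode was shared between members of different libraries. The limits on genes, UMIs and mitochondrial share removed more cells from control 1 and cKO 1 than from the other two libraries and left 6513, 9342, 8411 and 13334 kept cells in control 1, control 2, cKO 1 and cKO 2. Summed over the conventional droplets, the libraries held 207285 to 313335 UMIs. Levels below are UMIs of a gene per 1000000 UMIs (CPM) summed over the droplets of a class in 1 library, and they compare the same gene between classes.

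The gene for the MHC class II alpha chain, H2-Aa (GRCm38 chr17:34282744-34287823, minus strand), stood at 6508 and 7571 CPM in conventional cells of control 1 and control 2 and at 4956 and 6884 CPM in cKO 1 and cKO 2. In all other kept cells, which are mostly thymocytes, it stood at 51.9 to 68.7 CPM, and in the C1q-positive droplets of the macrophage type at 587 to 1113 CPM. Cd74, the invariant chain that guides class II molecules to the endosome, stood at 15433, 15475, 10848 and 14432 CPM in the same order of libraries. cKO 1 had the lowest level of each of the 4 genes in conventional cells, and cKO 2 lay closer to the controls.

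Genes of the pathway that the rule did not read were also high in conventional cells. H2-DMb1, a chain of the H2-DM molecule that exchanges peptides on class II, stood at 357, 292, 260 and 195 CPM in control 1, control 2, cKO 1 and cKO 2, against 2.97 to 3.52 CPM in other kept cells. H2-Ob, a chain of the H2-O molecule that restrains H2-DM, stood at 82, 61.1, 28.3 and 41.5 CPM, against 4.66 to 6.57 CPM in other kept cells. Ciita, the class II transactivator, stood at 111, 136, 37.8 and 198 CPM, against 2.14 to 2.95 CPM. Ifi30, a thiol reductase of antigen processing, stood at 1283, 1103, 850 and 1222 CPM, against 22.3 to 31 CPM. Not every gene had the same order between classes. H2-DMb1 stood at 417 to 811 CPM in cDC1-like and at 86 to 95.2 CPM in mature-like droplets, whereas H2-Eb2 stood at 0 to 14.8 CPM in cDC1-like and at 71.4 to 195 CPM in mature-like droplets.

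Class II genes are known to share promoter elements called the X box and the Y box, to which the complex that recruits CIITA binds. The stretches below are printed because 4 of the class II genes examined hold both boxes in the same order. They come from RefSeq promoters of GRCm38.p6 (250 bases before to 50 after the start), on the strand of the gene, with the letters AACNNATGA (part of the X box) and GATTGG (the Y box) in capitals.
H2-Eb1, chr17:34305766-34305824, plus strand: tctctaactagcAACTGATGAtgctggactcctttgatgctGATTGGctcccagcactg
H2-DMb1, chr17:34153087-34153146, plus strand: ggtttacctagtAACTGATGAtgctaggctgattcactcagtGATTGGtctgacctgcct
H2-DMb2, chr17:34145116-34145175, plus strand: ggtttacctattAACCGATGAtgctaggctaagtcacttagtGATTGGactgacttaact
H2-Ob, chr17:34238808-34238864, plus strand: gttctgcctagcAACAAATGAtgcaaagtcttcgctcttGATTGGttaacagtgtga
The gap between the boxes was 18 to 21 bases, and the Y box ended 52 to 85 bases before the start. On either strand, AACNNATGA was in 2.85% and GATTGG in 16.1% of 32851 promoters, and the pair with a gap of 10 to 30 bases was in 9 promoters (0.0274%). The promoters of H2-Aa, H2-Eb2 and H2-Oa held GATTGG without AACNNATGA, as did 1 of 2 promoters of H2-DMa, while the other and those of Ctss, Ifi30 and Lgmn held neither. No promoter of H2-Ab1, Cd74 or Ciita was among those examined. The search letters were chosen with these promoters in view, and a match describes the sequence only.

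The genes that stood highest in conventional cells against other kept cells, ranked by the log2 ratio of mean CPM plus 5, were the 4 genes of the rule and then Cst3, Fscn1, Apol7c, Ifi205, Plbd1, Zmynd15, Ccl22 and Cxcl16. Cst3, which encodes the protease inhibitor cystatin C, stood at 16711, 17378, 10323 and 12479 CPM in control 1, control 2, cKO 1 and cKO 2, against 195 to 213 CPM in other kept cells and 875 to 1511 CPM in C1q-positive droplets. Flt3, the receptor for the growth factor of dendritic cells, stood at 106, 81.4, 42.5 and 105 CPM, against 0.69 to 1.06 CPM in other kept cells and 0 to 1.49 CPM in C1q-positive droplets. Zbtb46, a transcription factor of the conventional lineage, stood at 9.65, 40.7, 18.9 and 44.7 CPM, against 0.378 to 0.573 CPM in other kept cells. Itgax, which encodes CD11c, stood at 62.7, 54.3, 47.2 and 31.9 CPM, against 0.452 to 0.648 CPM. In the summed conventional cells, these genes outside the rule were thus higher than in other kept cells in all 4 libraries. The level of Flt3 in cKO 1 and that of Zbtb46 in control 1 were below those in the other libraries. The sums do not show the label for each droplet, and 157 of the 320 stayed undivided.

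Markers of other cell types were also measured in these droplets. The 12 T cell genes (Cd3e, Cd8b1, Rag1 and others) summed to 2412, 3003, 3558 and 3290 CPM in conventional cells of control 1, control 2, cKO 1 and cKO 2, against 8518 to 9953 CPM in other kept cells, and all 12 were detected. The 12 macrophage genes summed to 153 to 345 CPM, against 11590 to 18779 CPM in C1q-positive droplets, with Mertk at 0 in conventional cells. C1qa, C1qb and C1qc are in this list and set both classes, so part of that difference was fixed by the rule. The 5 erythroid genes summed to 6.79 to 35.1 CPM, against 1680 to 2913 CPM in other kept cells. Lyz2, of the monocyte and neutrophil list, had 131, 48, 29 and 37 UMIs. They lay in 6 of 61, 11 of 83, 10 of 90 and 14 of 86 conventional droplets. The 6 thymic epithelial genes summed to 150, 64.5, 184 and 370 CPM, above the 35.5 to 49 CPM of other kept cells, with Epcam at 0 by the rule.

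**Figure D2:**
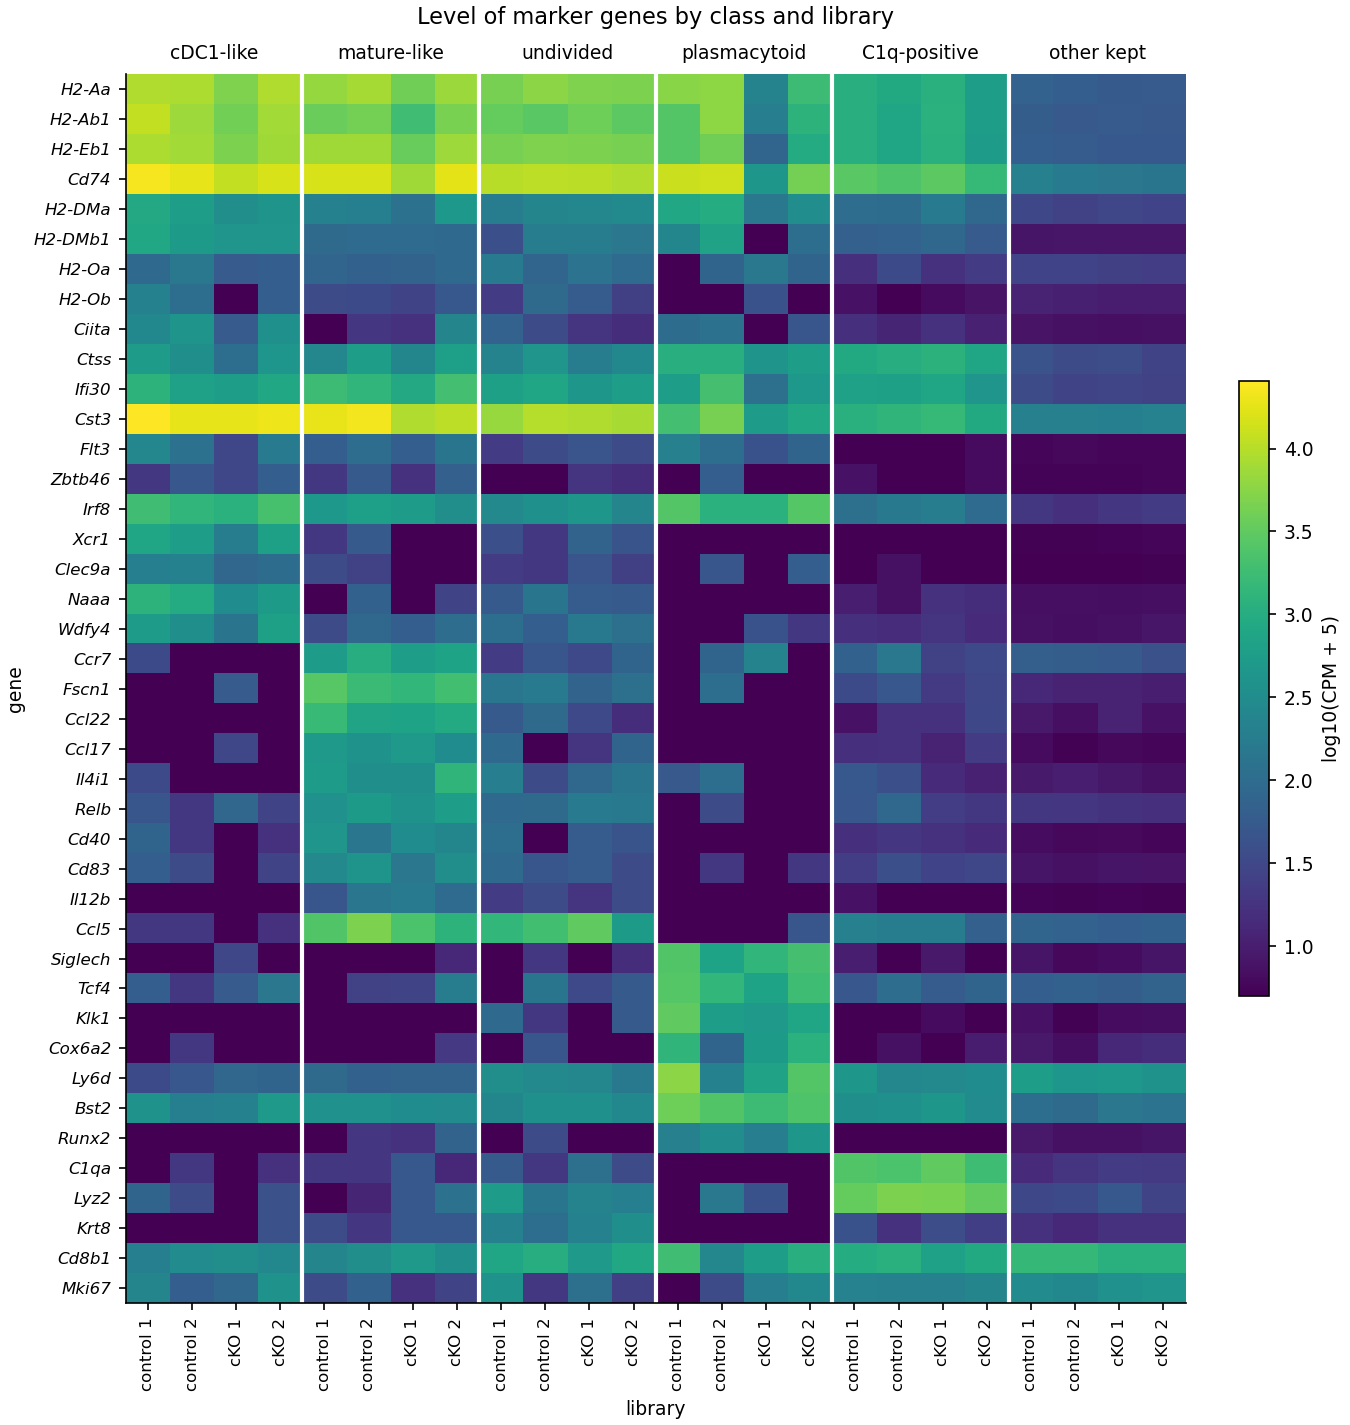
Level of 41 genes as log10(CPM + 5) in each class (blocks of columns) and library (columns), from dark (0 CPM) to yellow. Xcr1, Clec9a and Naaa are bright in the cDC1-like block, Ccr7 to Cd83 and Il12b in the mature-like block and Siglech, Tcf4 and Klk1 in the plasmacytoid block, where cKO 1 is darkest for the MHC class II genes.

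The cDC1-like droplets numbered 9, 12, 8 and 12 in control 1, control 2, cKO 1 and cKO 2. Against the other conventional cells they were led by Xcr1, Naaa, Rab7b, Cln8, Anpep, Clec9a, Tctn2, Gcsam, Sept3, Anxa1, Ifi205 and Jaml, of which Xcr1, Naaa, Clec9a and Ifi205 chose them. A few deep droplets carried much of the class: 2 droplets of 21597 and 21253 UMIs gave most of the 67786 UMIs of control 1, 1 of 27905 gave much of the 66783 of control 2, and 1 of 32279 much of the 83359 of cKO 2, so the levels below lean on those cells. Rab7b stood at a mean of 224 CPM in cDC1-like droplets against 18.9 CPM in the other conventional cells. Wdfy4, which is needed for cross-presentation, stood at 561, 344, 130 and 624 CPM against 29.9 to 102 CPM in mature-like droplets. Irf8, the factor that cDC1 depend on, stood at 1874, 1378, 1173 and 2147 CPM against 336 to 618 CPM in mature-like droplets, with no overlap between the classes. Id2, an inhibitor of E proteins that cDC1 require, stood at 644 to 1200 CPM in cDC1-like and at 195 to 480 CPM in mature-like droplets. Mki67, a gene of dividing cells, stood at 236, 59.9, 78.2 and 384 CPM in cDC1-like and at 29.9, 65.5, 11.9 and 23.4 CPM in mature-like droplets, higher in cDC1-like droplets of 3 libraries and not of control 2. These levels rested on 16, 4, 3 and 32 UMIs in cDC1-like and 2, 9, 1 and 3 in mature-like droplets, with 20 of the 32 in 1 droplet of 13424 UMIs. At least 5 UMIs of the 19 proliferation genes other than Dek, H2afz and Hmgb2 were found in 15 of 41 cDC1-like (36.6%) and 16 of 114 mature-like droplets (14%), at median depths of 3575 and 2233.5 UMIs.

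The mature-like droplets numbered 24, 31, 31 and 28. They were led by Ccl22, Fscn1 and Ccr7, which chose them, and by Rgs1, Ccl17, Socs2, Il4i1, Anxa3, H2-M2, Tnfrsf4, Nudt17 and Glipr2. Ccl17, a ligand of CCR4, stood at 507, 385, 500 and 313 CPM, against 0 to 26.1 CPM in cDC1-like droplets. Relb, a subunit of the non-canonical NF-kB pathway, stood at 373, 524, 381 and 586 CPM, against 15 to 78.2 CPM. Cd40 stood at 418, 138, 309 and 250 CPM and Cd83 at 269, 415, 143 and 336 CPM, and both were at most 73.8 CPM in cDC1-like droplets. Il12b, a subunit of interleukin 12, stood at 44.8, 138, 167 and 93.8 CPM and had no UMI in cDC1-like droplets. Ccl5 stood at 2463, 4677, 2249 and 1258 CPM in mature-like and at 1419, 1897, 3129 and 525 CPM in undivided droplets, against 0 to 15 CPM in cDC1-like ones. In undivided droplets 55 of the 82 Ccl5 UMIs of control 1 and 154 of the 225 of cKO 1 came from 1 droplet each. Of 114 mature-like droplets, 15 lay exactly at the limit of 3 UMIs, and 16 undivided droplets lay 1 UMI below it. The deepest mature-like droplet, of 26281 UMIs, lay in control 2, where the class held 137490 UMIs, so the levels there lean partly on it.

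The cDC2-like class held 1, 4, 1 and 2 droplets, and its level in a library is that of these few cells. Against the other conventional cells it was led by Ccr2 and Sirpa, which are in its rule. The other leading genes were Ms4a6d, Ms4a4c, Cybb, Wfdc17, Ms4a6c, Clec4a1, Ddx58, Fcgr2b, Pid1 and Fcer1g. Ms4a6c, of the monocyte and neutrophil list, stood at 2038, 896, 1268 and 204 CPM against 5.15 to 74.6 CPM. The class is called by its rule here, and monocytes were not told apart from cDC2. In control 1, 46 of the 50 Ccr2 UMIs of all conventional cells came from 1 droplet, and in control 2, 16 of 21. Cd209a, a lectin of cDC2, had 47 of its 50 UMIs in control 2 and all 29 of its UMIs in cKO 1 in 1 droplet each, and none in control 1. The class is therefore not summarised further.

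The undivided droplets (27, 36, 50 and 44) had Cst3 at 6871, 9902, 9136 and 8382 CPM, below the cDC1-like levels of 18246 to 25374 CPM in every library and far above other kept cells. Against the divided conventional cells they were led by Fabp4, Ccl25, Csn2, Fezf2, Krt17, Krt18, Ctsl, Alox12e, Ubd, S100a14, Skint10 and Hdc. Ccl25, Fezf2, Krt17 and Krt18 are genes of thymic epithelium, and Krt8, another, stood at 208, 105, 209 and 350 CPM in undivided against 8.3 to 12.1 CPM in other kept cells. Aire, the regulator of self antigens in medullary epithelium, had 5, 3, 0 and 9 UMIs. At least 3 UMIs of the epithelial list were found in 4 of 27, 1 of 36, 4 of 50 and 4 of 44 undivided droplets, 13 of 157 in all, against 425 of 36207 other kept cells (1.17%). A single droplet often carried such a gene: in cKO 2, 68 of 87 Ccl25 UMIs and 257 of 286 Ctsl UMIs came from 1 droplet each. Some undivided droplets thus held epithelial genes beside class II genes, and the class is called by its rule here. T cell genes summed to 3755 to 6556 CPM in it, more than in mature-like droplets of 3 libraries and less in cKO 1 (3755 against 4700 CPM).

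The plasmacytoid class held 2, 3, 2 and 11 droplets. Siglech (GRCm38 chr7:55768178-55778925, plus strand), which chose them, stood at 2467, 697, 1385 and 2013 CPM and, next in rank against conventional cells, came Klk1, Cox6a2, Lair1, Gm21762, Cd300c, Upb1, Klk1b27, Tcf4, Smim5, Pltp and Mzb1. Tcf4 stood at 2664, 1409, 711 and 1793 CPM against 24.1 to 124 CPM in conventional cells. Klk1, a kallikrein, stood at 3157, 593, 487 and 749 CPM against 0 to 24.1 CPM, and Klk1b27 is a near-identical family member whose reads can be split with it. Bst2, an interferon-inducible surface protein, stood at 3848, 2521, 1722 and 2395 CPM against 293 to 410 CPM. Ighm, the heavy chain gene also transcribed in these cells, stood at 1184, 430, 262 and 1249 CPM, in cKO 1 no higher than in other kept cells (311 to 367 CPM), while Ms4a1, Pax5 and Ebf1 had no UMI. Id2, which opposes the programme of TCF4, had no UMI in 3 libraries and stood at 29.4 CPM in cKO 2, against 420 to 550 CPM in conventional cells. Ccl22, Cxcl16, Zmynd15 and Apol7c had no UMI in the class.

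The plasmacytoid droplets were not alike. Tcf4 and Irf8 UMIs were both present in 12 of the 18, 2 of 2 in control 1, 2 of 3 in control 2, 1 of 2 in cKO 1 and 7 of 11 in cKO 2. Of the 6 others, the deepest (29163 UMIs, control 2) held 3 Siglech, 40 Tcf4, 33 Bst2 and 1768 MHC class II UMIs. It held 92 UMIs of the plasmacytoid list, 155 of the cDC2 list and none of Irf8, Klk1 or Ly6d. A droplet of cKO 1 with 8545 UMIs held 2 Siglech UMIs, 40 UMIs of T cell genes and none of Tcf4, Irf8, Ly6d or the MHC class II genes. In cKO 2, 2 droplets with 2272 and 2410 UMIs likewise held 34 and 39 T cell UMIs and neither Tcf4 nor Irf8. Another droplet of cKO 2, with 1161 UMIs, lacked Tcf4 alone and held plasmacytoid genes, with 4 Siglech, 19 Ly6d, 11 Klk1, 9 Bst2 and 2 Irf8 UMIs and 1 T cell UMI. The last, with 948 UMIs in cKO 2, held 8 UMIs of the plasmacytoid list and 1 T cell UMI. T cell UMIs did not set these 6 droplets apart. The 12 droplets with both factors held 1 to 103 of them, with 103 in that of cKO 1 (18170 UMIs). The plasmacytoid label was carried by both factors in 12 droplets, only 1 of them in cKO 1.

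The limit on Cd79 removed droplets with the same genes. Of 36 kept droplets with at least 2 Siglech UMIs (8, 5, 6 and 17 by library), 18 were members, and 14 (4, 2, 3 and 5) were left out for Cd79 alone. All 14 held Cd79b and none Cd79a, with 20 Cd79b UMIs in total. All 14 also held Tcf4, Irf8, Bst2 and Ccr9, and none held Ms4a1, Pax5 or Ebf1. Pooled over libraries, Tcf4 stood at 1497 CPM in them and 1589 CPM in the members, and Siglech at 1842 and 1485 CPM. With these 14 added, plasmacytoid droplets numbered 6, 5, 5 and 16, and their share of dendritic cells was 8.96%, 5.68%, 5.26% and 15.7%, an alternative added after seeing the data.

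Lck-Cre was not directed at dendritic cells, and whether these cells carried the deletion was not measured. The comparison of cKO with control mice asks whether they differ in a thymus whose T cells carry the deletion. Tox4 (GRCm38 chr14:52279146-52296401, plus strand) had 30, 15, 12 and 20 UMIs in conventional cells, which is 145 and 50.9 CPM in control 1 and control 2 and 56.7 and 63.8 CPM in cKO 1 and cKO 2. The groups overlapped, and the log2 fold change was -0.62 ± 0.48 (SE, n = 2 and 2; edgeR adjusted p = 0.999), and 0.21 without control 1. A 3′ kit reads the end of the transcript, outside the floxed exons 4 to 6, so these counts do not check the deletion.

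Dendritic cells made up 0.967% (95% Clopper-Pearson interval 0.744 to 1.24%) and 0.921% (0.737 to 1.14%) of the kept cells of control 1 and control 2, and 1.09% (0.883 to 1.34%) and 0.727% (0.59 to 0.887%) of those of cKO 1 and cKO 2. The intervals cover counting error only. cKO 1 was the highest and cKO 2 the lowest, so the cKO libraries lay on either side of the controls. The mean was 0.944% ± 0.033 (SD, n = 2) in control and 0.911% ± 0.259 (SD, n = 2) in cKO, a difference of -0.0333 percentage points (exact permutation test over libraries, two-sided p = 1, where 2 against 2 cannot go below 0.333). Thinned to 1000 UMIs a cell, with at least 5 class II UMIs or 1 Siglech UMI in place of the limits above and shallower cells left out, the shares were 1.43%, 1.26%, 1.49% and 0.967%, with cKO 1 again highest and cKO 2 lowest. At a mitochondrial limit of 5% the difference was -1.15 percentage points. Without cKO 2 the difference was 0.15 and without cKO 1 it was -0.216 percentage points.

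Plasmacytoid cells made up 3.17% (0.387 to 11%), 3.49% (0.725 to 9.86%), 2.17% (0.264 to 7.63%) and 11.3% (5.8 to 19.4%) of the dendritic cells of control 1, control 2, cKO 1 and cKO 2. The higher cKO mean, 6.76% ± 6.48 against 3.33% ± 0.222 (SD, n = 2 each; exact permutation p = 1), rested on cKO 2, without which the difference was -1.16 percentage points. Mature-like cells made up 39.3%, 37.3%, 34.4% and 32.6% of the conventional cells, lower in both cKO libraries by a mean of -4.85 percentage points, with an exact permutation p of 0.333, the smallest this design allows, and with intervals of each library that overlapped those of all others. Of all kept cells they made up 0.368%, 0.332%, 0.369% and 0.21% (exact permutation p = 1), with cKO 1 no lower than the controls. cDC1-like cells made up 14.8%, 14.5%, 8.89% and 14% of the conventional cells (difference -3.18 points, exact permutation p = 0.333, and 0.991 points at a mitochondrial limit of 5%) and cDC2-like cells 1.64%, 4.82%, 1.11% and 2.33%. Undivided cells made up 44.3%, 43.4%, 55.6% and 51.2% (difference 9.54 points, exact permutation p = 0.333). The subset limits are raw UMI counts, so these shares depend on depth. Of conventional droplets with at least 2000 UMIs, 10 of 32, 14 of 41, 9 of 32 and 18 of 49 were undivided. These are 31.25%, 34.1%, 28.1% and 36.7%, and the groups overlapped. Mature-like and cDC1-like shares at equal depth were not measured.

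**Figure D3:**
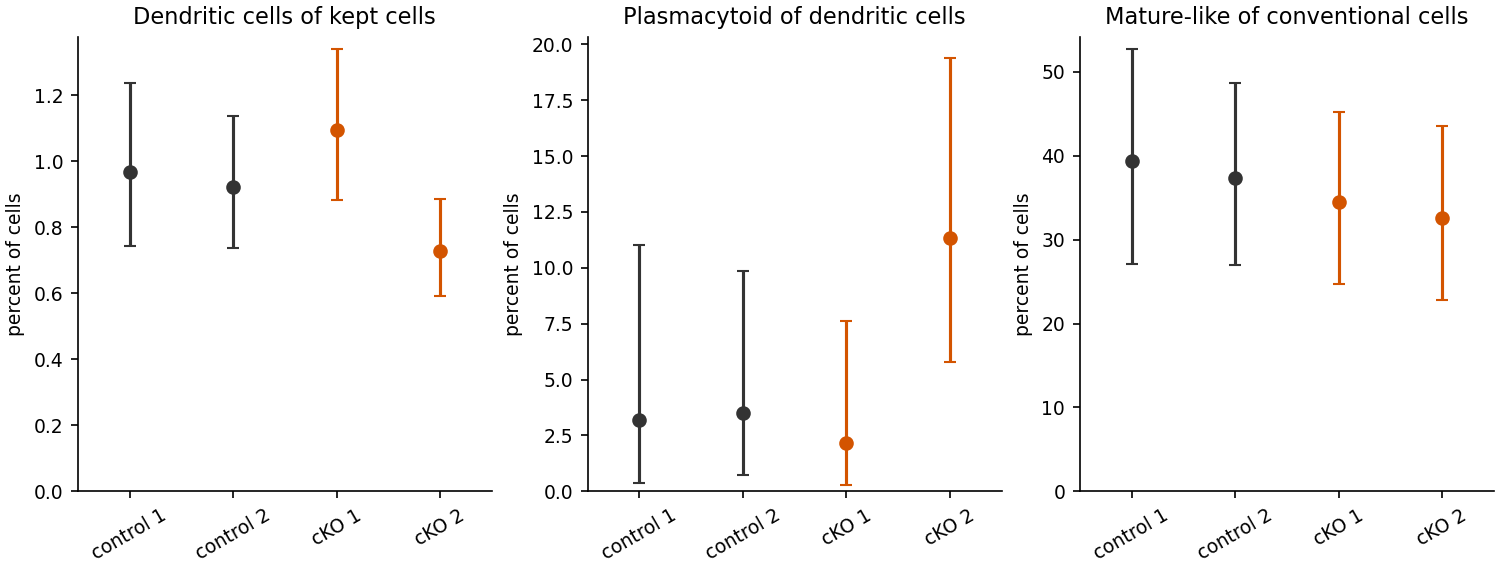
Share of dendritic cells among kept cells, of plasmacytoid among dendritic cells and of mature-like among conventional cells in each library, in percent, with 95% Clopper-Pearson intervals as bars (control dark, cKO orange). The intervals of the cKO libraries overlap those of both control libraries in each panel, and cKO 2 stands highest in the plasmacytoid panel at 11.3%.

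UMI sums of the conventional cells were tested for 3514 genes by edgeR's quasi-likelihood test. No gene passed at an adjusted p under 0.05 (0% called), the smallest adjusted p was 0.215, 146 genes had an unadjusted p under 0.05, and DESeq2 likewise called 0. With no filter on low counts 26 genes were called, and with 1 library left out 17 (without control 1), 24 (without control 2), 11 (without cKO 1) and 14 (without cKO 2). Control levels lay entirely above or below cKO levels in 31.8% of the genes tested. In mature-like cells edgeR tested 1523 genes and called 0 (0% called), with 67 at an unadjusted p under 0.05 and a smallest adjusted p of 0.563. DESeq2 called 0 there too, no filter gave 7, and leaving out control 1, control 2, cKO 1 or cKO 2 gave 5, 0, 24 and 5. In these cells 33% of the genes had levels without overlap. The plasmacytoid, cDC1-like and cDC2-like classes had fewer than 20 cells in every library and were not tested, and neither was the difference in genotype effect between plasmacytoid and conventional cells.

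Since fewer than 10 genes were called, the 5 genes with the smallest p in each direction are described, none of which passed the test. Ccl21a, a CCR7 ligand of thymic stroma with near-identical family copies, had 1, 5, 22 and 49 UMIs in conventional cells of control 1, control 2, cKO 1 and cKO 2 (log2 fold change 3.42 ± 0.53, SE, n = 2 and 2; edgeR adjusted p = 0.215). Of these, 48 of the 49 UMIs of cKO 2 lay in 1 undivided droplet and the 22 of cKO 1 in 2 droplets. Ctsl, a cathepsin of cortical epithelium, stood at 130, 115, 246 and 977 CPM (2.34 ± 0.53, edgeR adjusted p = 0.649), with 257 of 306 UMIs of cKO 2 in 1 droplet. S100a8, a neutrophil gene, stood at 24.1, 6.79, 89.8 and 118 CPM, with 13 of 19 and 26 of 37 cKO UMIs in 1 droplet each. Ms4a4b and Krt17, a keratin, were the other genes with higher values in cKO. Without the undivided droplets, an alternative added after seeing the data, edgeR tested 2651 genes and called 0, the log2 fold change of Ctsl was -0.27, and Ccl21a, S100a8, Ms4a4b and Krt17 no longer passed the filter on low counts.

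Among the genes with lower values in cKO, Ccr2, a chemokine receptor, stood at 241, 71.3, 9.45 and 12.8 CPM (log2 fold change -3.67 ± 0.69; edgeR adjusted p = 0.326), and most of its control UMIs lay in 1 droplet per library, as given above. Naaa, a lysosomal amidase of cDC1, stood at 439, 299, 89.8 and 163 CPM (-1.49 ± 0.33; edgeR adjusted p = 0.649), with 53 of 91 and 45 of 88 control UMIs in 1 droplet each. Plbd1, a phospholipase-like protein of cDC1, stood at 458, 465, 217 and 255 CPM, and Unc93b1, a chaperone of endosomal Toll-like receptors, at 207, 143, 23.6 and 73.4 CPM. For Plbd1, 1 droplet per library held 42 of 95, 35 of 137, 8 of 46 and 26 of 80 UMIs. For Unc93b1 it held 17 of 43, 16 of 42, 1 of 5 and 5 of 23. Cst3 was spread over many cells, with UMIs in 55 of 61, 77 of 83, 75 of 90 and 76 of 86 conventional droplets. Its levels of 16711 and 17378 CPM in control and 10323 and 12479 CPM in cKO did not overlap, at a log2 fold change of -0.58 ± 0.16 (SE, n = 2 and 2; edgeR adjusted p = 0.969).

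**Figure D4:**
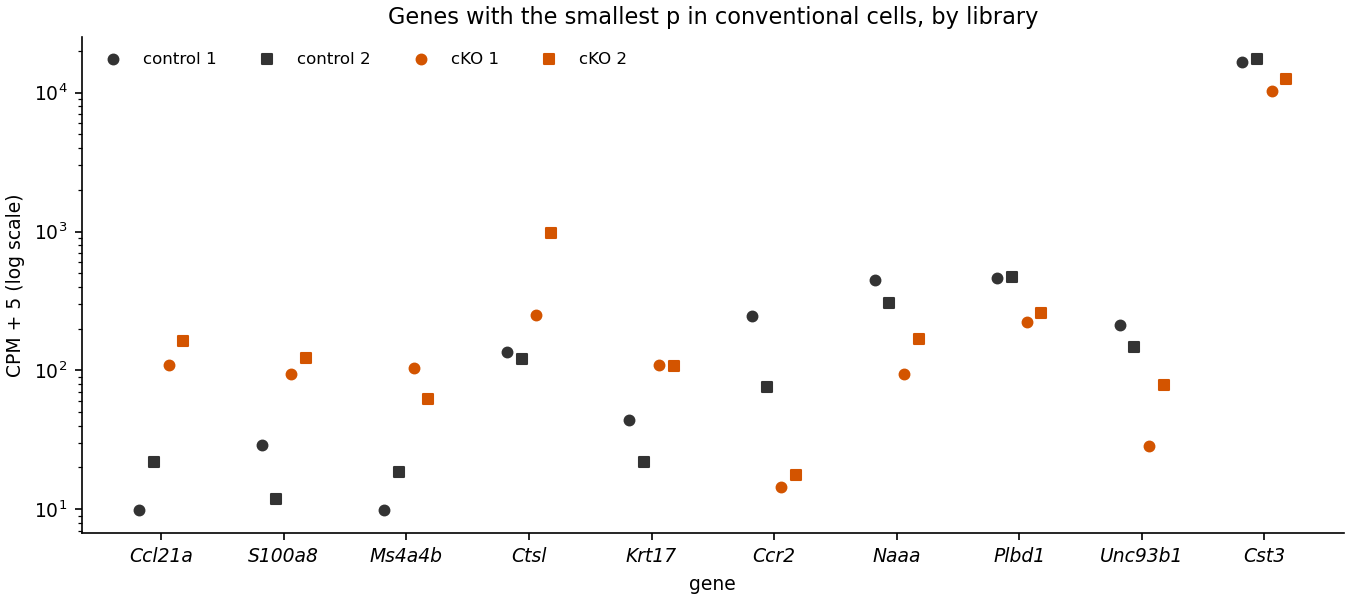
Level in CPM + 5 (logarithmic axis) of the 10 genes with the smallest p in conventional cells, 5 in each direction, in control 1 and control 2 (dark) and cKO 1 and cKO 2 (orange). The groups do not overlap for any of the 10, which the choice by p favours, and none passed the test.

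In mature-like cells Cst3 stood at 19298 and 22162 CPM in control 1 and control 2 and at 9305 and 10823 CPM in cKO 1 and cKO 2 (log2 fold change -1.06 ± 0.23, SE, n = 2 and 2; edgeR adjusted p = 0.563), with UMIs in 24 of 24, 30 of 31, 31 of 31 and 27 of 28 droplets. The top droplet of each library held 265 of 1293, 863 of 3047, 82 of 782 and 314 of 1385 Cst3 UMIs. With the replicate number as a block, Cst3 passed the test (edgeR adjusted p = 0.0143). For its own gene calls the study required the same direction of change in both replicates. The sources used here do not say that equal numbers in the labels mark a pair of mice. Psap, a precursor of lysosomal activator proteins, stood at 687, 1353, 286 and 367 CPM (-1.66 ± 0.37; edgeR adjusted p = 0.563). Spi1, the myeloid transcription factor PU.1, stood at 388, 342, 119 and 172 CPM, Ccl5 at 2463, 4677, 2249 and 1258 CPM, and Ppt1, a lysosomal thioesterase, at 134, 247, 83.3 and 39.1 CPM. Of the control UMIs of Psap, 22 of 46 and 75 of 186 lay in 1 droplet each, and of those of Ppt1, 5 of 9 and 25 of 34, and without the top droplet of each library Ppt1 had 4 and 9 UMIs in control and 5 and 4 in cKO. Of the control UMIs of Ccl5, 70 of 165 and 160 of 643 lay in 1 droplet each, and without the top droplet of each library Ccl5 had 95 and 483 UMIs in control and 161 and 134 in cKO. Higher in cKO without passing the test were Bcl11b and Tcf7, both transcription factors of T cells, Arhgap30, Gm4258 and Cd164. Bcl11b stood at 134, 138, 428 and 430 CPM (1.63 ± 0.37; edgeR adjusted p = 0.563) and Tcf7 at 179, 233, 535 and 399 CPM. The 12 T cell genes, Bcl11b and Tcf7 among them, summed to 2030 and 2138 CPM in mature-like cells of control 1 and control 2 and to 4700 and 2720 CPM in those of cKO 1 and cKO 2, and their part in the values of these genes was not tested.

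**Figure D5:**
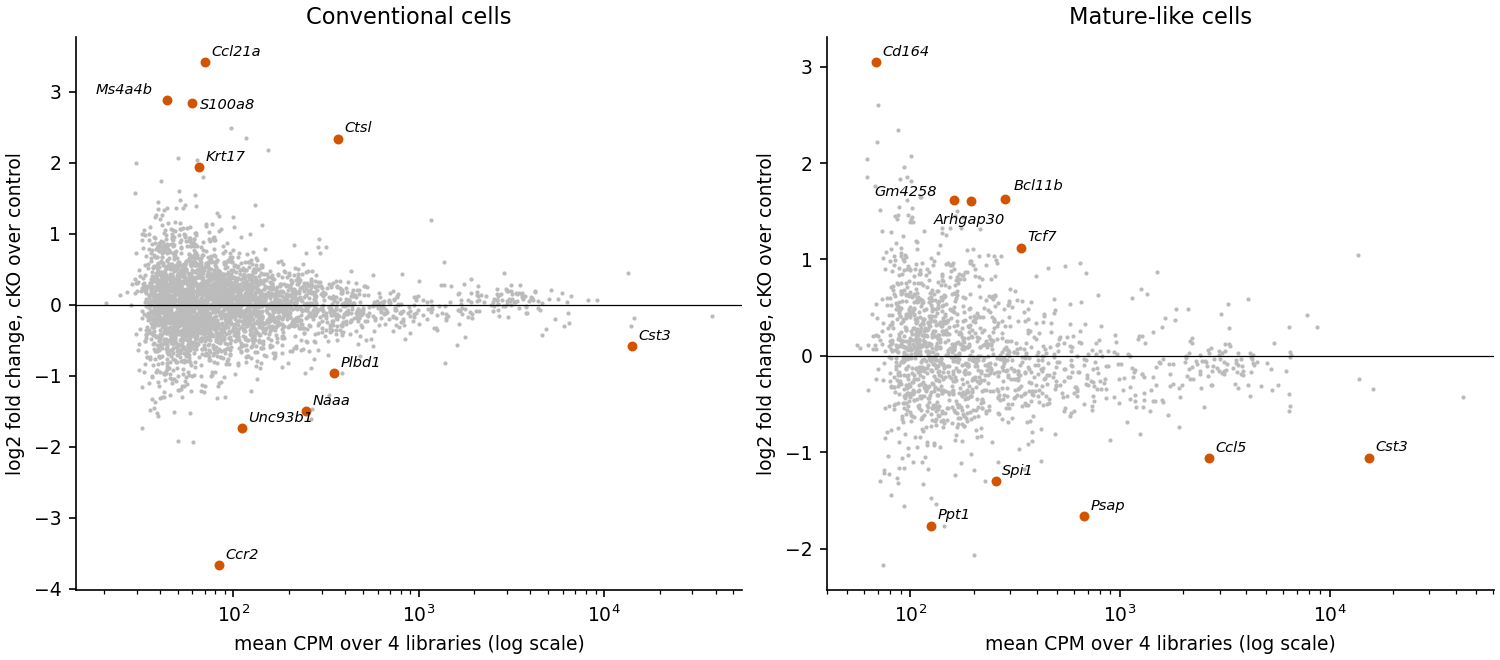
Log2 fold change of cKO over control (edgeR) against mean CPM of each gene tested, on a logarithmic axis, in conventional cells (3514 genes) and mature-like cells (1523 genes), with the 10 genes of smallest p in orange. None was called, and Ccr2 and Ccl21a lie at the lower and upper edge of the left panel.

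The gene lists in conventional cells are read beside all genes tested, whose median log2 fold change was 0.01 and of which 31.8% did not overlap. Of 10 tested genes of class II presentation outside the rule, 0 were called, 8 had lower and 2 higher values in cKO, and 5 did not overlap, all lower (H2-DMb1, H2-Oa, H2-Ob, Ctss and Lgmn), with a median log2 fold change of -0.25. Of 7 core conventional genes, 0 were called and 6 had lower values, 4 without overlap (Itgax, Cst3, Plbd1 and Clec12a), with a median of -0.49. Of 9 cDC1 genes, 0 were called and 8 had lower values, 3 without overlap, with a median of -0.74, beside cDC1-like shares that were lowest in cKO 1. Of 11 genes of the mature state, 0 were called, 6 had higher and 5 lower values, and 1 (Fscn1) did not overlap, with a median of 0.03. Of 7 costimulation and checkpoint genes, 0 were called, 5 had higher and 2 lower values, with a median of 0.06, and Cd86, a ligand of CD28, was the single one without overlap, at 178 and 183 CPM in control and 70.9 and 102 CPM in cKO.

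Of 6 chemokines 0 were called and 1 (Cxcl16) did not overlap. Of 7 transcription factors 0 were called and 1 (Spi1) did not overlap. Of 8 interferon-stimulated genes 0 were called and none was without overlap. The list summed to 1481 CPM in control 1 against 506, 761 and 555 CPM in control 2, cKO 1 and cKO 2. Control 1 included 1 droplet of 14721 UMIs at 9306 CPM, cDC2-like by the rule. That droplet held 94 of the 131 Lyz2 UMIs of conventional cells in control 1, a library with no Cd209a or Mgl2 UMI in them. Of 5 chemokine receptors 0 were called, with Ccr2 lower and Cxcr4 higher without overlap. All 10 tested T cell genes had higher values in cKO (0 called, 5 without overlap, median 0.29), and both tested epithelial genes, Krt8 and Krt18, did too (0 called, both without overlap, median 1.55). The part of T cell and epithelial RNA in the values of the dendritic cell lists was not tested.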

How the data were processed

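The authors aligned reads to GRCm38 (mm10) and counted UMIs with cellranger 6.1.1 at default parameters, and they deposited filtered matrices of raw counts per gene (32285) and cell, not pooled. The annotation release behind the counts is not given in the sources used here. Counts of the member droplets were summed per class and library, with at least 20 cells per library for a test. Sums were tested with edgeR 4.0.16 (R 4.3.3; quasi-likelihood, TMM, filterByExpr, genotype as the single term, Benjamini-Hochberg over all genes tested), with DESeq2 1.42.0 as an alternative. The fit was tested on simulated data. Shares were compared with an exact permutation test over libraries. No doublets were removed in the main values, and Scrublet (scanpy 1.11.5) gave an alternative. The members, the lists and the rule for named genes (all listed genes, the 12 leading genes per class and, per fit, the 10 largest called changes in each direction or, with under 10 called, the 5 smallest p in each direction) were chosen with earlier results of these data known. The study describes 2 pairs of mice and required the same direction of change in both replicates, but the sources do not tie the replicate numbers of the labels to the pairs. Positions are from GENCODE M21 and promoters from RefSeq.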

Additional observations from a re-analysis of the deposited data

Results flagged for a closer look

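Outside the comparisons lay 14 kept droplets with at least 2 Siglech UMIs that had been left out for Cd79 UMIs alone, 4 in control 1, 2 in control 2, 3 in cKO 1 and 5 in cKO 2. They are given here because a signal of plasmacytoid genes appeared in cells that the shares do not count: Tcf4 and Irf8 were present in 14 of 14, at 1497 and 2623 CPM, against 56.9 to 70.7 and 11.1 to 17.8 CPM in other kept cells.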

How the results depend on the processing

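The difference in the share of dendritic cells (-0.0333 percentage points) turned to 0.0138 without the top and bottom 2.5% of UMI totals and ranged from -0.216 to 0.15 when 1 library was left out (0.15 without cKO 2). At a mitochondrial limit of 5% it was -1.15. Keeping Siglech droplets whatever their Cd79, or only those with Tcf4 and Irf8, both added after seeing the data, gave plasmacytoid differences of 3.16 and 1.55. The plasmacytoid share (3.43 points) ranged from -1.16 (without cKO 2) to 8.01. The cDC1-like share (-3.18) turned to 0.991 at a mitochondrial limit of 5%, and the cDC2-like share (-1.51) ranged from -3.1 to 0.079, the latter without control 2. The mature-like share kept its sign under every alternative, from -1.91 to -10.8, but none of these set the conventional droplets to equal depth.

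In conventional cells the count of 0 called genes became 26 with no filter on low counts and 11 to 24 when 1 library was left out (17 without control 1, 24 without control 2, 11 without cKO 1, 14 without cKO 2), where the lone library is assumed to vary like the other group. It stayed at 0 with DESeq2, DESeq2 size factors, a replicate block and the other limits of the rule. In mature-like cells it became 7 with no filter and 0 to 24 when 1 library was left out (5 without control 1, 24 without cKO 1, 5 without cKO 2), and 2 with a replicate block, 1 of them Cst3 (adjusted p = 0.0143), and the block changed no other named call. The study describes 2 pairs of mice, but the labels do not say that equal replicate numbers mark a pair, and deviations of same-numbered libraries correlated at 0.10 (conventional) and 0.20 (mature-like) with 2 pairs only. The log2 fold change of Tox4 (-0.62) ranged from -1.22 (without control 2) to 0.21 (without control 1), and that of Ctsl to -0.27 without the undivided cells. The causes were not tested. Tests of plasmacytoid, cDC1-like and cDC2-like cells and their interaction were not run for lack of cells.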
